A study of Mus musculus with 2 samples.

Results

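The 9 genes described here, Aif1l, Itih5, Gsta4, Med18, Psg28, Stap2, Wfdc15a, Ddx43 and Aig1, lie outside the usual T cell gene lists and had a large excess in GFP-positive over GFP-negative CD4+ T cells. They are 9 of 18193 genes with a probe set of their own, and 14 of the 45101 probe sets on the array. They were chosen by the difference that their brightest probe set showed on these same arrays, so that difference is a description and carries no test. The question addressed was what the remaining probe sets, the relatives of each gene and its neighbours on the chromosome showed.

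The cells came from the DEREG mouse strain, which carries GFP under control of the Foxp3 promoter. Foxp3 is the transcription factor of regulatory T cells, and as background the DEREG transgene also encodes the diphtheria toxin receptor, fused to GFP. GFP-positive CD4+ T cells and GFP-negative CD4+ T cells, both from DEREG mice and sorted after negative selection of CD4+ cells to a stated purity above 99%, were each hybridised to 1 Affymetrix Mouse Genome 430 array. There are no replicates. The sources used here do not give age, sex, organ, number of mice or treatment. In bulk samples of this kind, more cells that express a gene and more RNA per cell cannot be told apart.

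Regulatory T cells restrain other immune cells, and their identity is usually read from surface receptors, cytokine receptors and transcription factors. The 9 genes are not usually counted among these. They encode an actin-binding protein (Aif1l), a hyaluronan-binding matrix protein (Itih5), a detoxifying enzyme (Gsta4), a subunit of the transcription machinery (Med18), a signalling adaptor (Stap2), an RNA helicase known from testis (Ddx43), a membrane hydrolase of fatty acid esters (Aig1), a secreted glycoprotein of the placenta (Psg28) and a member of the whey acidic protein domain family (Wfdc15a).

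Signals are MAS5 values on a linear scale, as the authors deposited them. A signal floor of 55.69 was set as the 90th percentile of 70 probe sets of 42 genes restricted to germ cells, placenta, epididymis and stromal or epithelial cells. A signal under the floor was raised to it, so that a fold against such a signal is a lower bound. The median signal of these 70 probe sets was 17.3 in GFP-positive cells against 9.5 in GFP-negative cells. The ratio of 3′ to 5′ signal of a gene climbs as RNA is shortened. For Actb this ratio was 5.30 in GFP-positive cells against 3.57 in GFP-negative cells. For Gapdh it was 9.27 in GFP-positive cells against 6.24 in GFP-negative cells. The part of RNA shortening in the differences was not tested. Foxp3, read as a check of the labels, gave 504.4 in GFP-positive cells against 173.2 in GFP-negative cells, or 2.91-fold. The title of the GFP-negative array calls its cells Foxp3-negative, but their Foxp3 signal was above the floor. The reason was not tested. All 8 of the measured CD4+ T cell markers lay above the floor, led by Cd2 and Cd3d at 7415 and 4618.9 in GFP-positive cells against 6628.5 and 4676.8 in GFP-negative cells. Of the 8, 2 were higher and 6 lower in GFP-positive cells, with a median of -0.30 log2. Cd4 itself gave 256.5 in GFP-positive cells against 415.1 in GFP-negative cells.

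The windows around the transcription starts of 4 of the genes are shown because Aif1l and Itih5 had the largest differences, and because Aif1l, Stap2 and Wfdc15a were the genes whose window held the forkhead core TAAACA, letters within the motif that Foxp3 and other forkhead factors recognise. Each window runs 5′ to 3′ on the gene's strand, from 250 bases before to 50 bases after a start, from RefSeq on GRCm38.p6. Capitals mark TAAACA on either strand.
Aif1l, chr2:31950053-31950352, plus strand: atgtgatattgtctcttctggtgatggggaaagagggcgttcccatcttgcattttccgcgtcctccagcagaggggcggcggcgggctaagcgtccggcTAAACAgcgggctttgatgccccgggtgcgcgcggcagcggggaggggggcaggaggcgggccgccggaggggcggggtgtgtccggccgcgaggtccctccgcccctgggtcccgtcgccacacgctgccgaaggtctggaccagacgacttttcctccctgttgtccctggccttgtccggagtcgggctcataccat
Itih5, chr2:10153293-10153592, plus strand: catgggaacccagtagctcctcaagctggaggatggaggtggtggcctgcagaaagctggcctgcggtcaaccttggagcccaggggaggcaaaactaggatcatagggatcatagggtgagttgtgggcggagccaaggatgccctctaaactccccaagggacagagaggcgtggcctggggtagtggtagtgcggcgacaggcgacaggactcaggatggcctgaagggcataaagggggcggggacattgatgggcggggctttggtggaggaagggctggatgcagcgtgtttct
Stap2, chr17:56005557-56005856, minus strand, downstream start: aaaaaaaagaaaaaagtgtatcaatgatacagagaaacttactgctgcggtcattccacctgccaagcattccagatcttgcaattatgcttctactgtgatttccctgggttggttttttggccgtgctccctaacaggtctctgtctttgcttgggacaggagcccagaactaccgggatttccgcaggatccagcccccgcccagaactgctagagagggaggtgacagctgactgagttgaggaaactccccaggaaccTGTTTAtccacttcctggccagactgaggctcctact
Stap2, chr17:56008087-56008386, minus strand, upstream start: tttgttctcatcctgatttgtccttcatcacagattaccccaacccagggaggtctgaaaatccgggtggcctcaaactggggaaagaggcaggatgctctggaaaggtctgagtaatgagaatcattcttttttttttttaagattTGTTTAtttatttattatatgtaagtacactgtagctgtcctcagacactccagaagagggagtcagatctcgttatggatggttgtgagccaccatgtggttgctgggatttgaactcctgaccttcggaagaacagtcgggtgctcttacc
Wfdc15a, chr2:164200068-164200367, minus strand: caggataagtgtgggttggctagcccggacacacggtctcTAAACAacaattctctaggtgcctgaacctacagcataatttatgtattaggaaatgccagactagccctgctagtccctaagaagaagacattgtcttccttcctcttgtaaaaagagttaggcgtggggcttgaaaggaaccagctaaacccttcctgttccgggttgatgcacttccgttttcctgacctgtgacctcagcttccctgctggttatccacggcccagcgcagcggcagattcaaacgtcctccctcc

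Of the 9 genes, 8 had such a window, with 9 windows in all because Stap2 has a pair, and Gsta4 was not matched. TAAACA stood in 4 of the 9 windows, from 3 genes, and in 13.4% of 32851 windows of all genes. The STAT site TTCNNNGAA stood in none of the 9 windows and in 8.3% of all windows. The RUNX core TGTGGT stood in the upstream Stap2 window alone and in 16.8% of all windows, and it did not overlap TAAACA there. A match is a run of letters and not a measured site, and no binding was measured. Base composition varied widely among the windows. G and C made up 71.7% of the Aig1 window, 67.7% of the Aif1l window and 64% of the Ddx43 window, but 49% of the Psg28 window and 44% of the upstream Stap2 window, against a median of 52.7% over all windows. CpG pairs numbered 32 for Aig1, 30 for Ddx43 and 29 for Aif1l, 2 for Psg28, and 7 as the median of all windows. The 9 genes therefore include promoters rich and poor in CpG.

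Aif1l, an actin-bundling protein closely related to the macrophage protein Aif1, showed the highest excess of all 45037 probe sets other than controls. Its brightest probe set, 1424262_at, had a signal of 2036.5 in GFP-positive cells and 128.7 in GFP-negative cells, or 15.8-fold (3.98 log2). The GFP-positive value ranked at percentile 97.7 of that array, and the GFP-negative value at percentile 74.4 of its own. A second probe set, 1424263_at, gave 71.3 in GFP-positive cells against 27.7 in GFP-negative cells, at least 1.28-fold. The third, 1451287_s_at, lay under the floor on both arrays, at 38.6 in GFP-positive cells against 5.2 in GFP-negative cells. All 3 probe sets had a higher signal in GFP-positive cells, but only the brightest was above the floor on both arrays. The second could come out higher only, and the third was too low to give a direction. Averaging the log2 signals of the 3 gave a difference of at least 1.67 log2. The averaged signal, 177.6 in GFP-positive cells against 26.5 in GFP-negative cells, was under the floor in GFP-negative cells, and without a floor that difference was 2.75 log2.

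Itih5 belongs to the heavy chains of the inter-alpha-trypsin inhibitors, plasma and matrix proteins that attach to hyaluronan. Among Aif1l, Itih5 and Stap2, the genes with more than 1 probe set, it had the largest second reading. Its brightest probe set, 1429159_at, gave 1074.3 in GFP-positive cells against 133.4 in GFP-negative cells, or 8.05-fold (3.01 log2). The next, 1441946_at, gave 234.7 in GFP-positive cells against 38.7 in GFP-negative cells, at least 4.21-fold, which placed it at rank 12 of the 45037 probe sets by itself. The third, 1436755_at, gave 93.5 in GFP-positive cells against 50.3 in GFP-negative cells, at least 1.68-fold. With the log2 signals of the 3 averaged, the difference was 2.17 log2.

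Stap2 is an adaptor with a phospholipid-binding and an SH2 domain that binds STAT factors. It had a pair of probe sets, both above the floor on both arrays, which differed in size. The brighter, 1424148_a_at, gave 248.9 in GFP-positive cells against 67.0 in GFP-negative cells, or 3.71-fold (1.89 log2). The other, 1451261_s_at, whose suffix marks probes that can match several transcripts, gave 107.0 in GFP-positive cells against 70.7 in GFP-negative cells, or 1.51-fold (0.60 log2). The direction was shared and the size was not.

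The other 6 genes had 1 probe set each, so their differences rest on a single reading per array. Gsta4, an alpha-class glutathione S-transferase that removes reactive aldehydes formed from oxidised lipids, gave 596.5 in GFP-positive cells against 86.7 in GFP-negative cells, or 6.88-fold (2.78 log2). Med18, a subunit of the head of the Mediator complex, which links transcription factors to RNA polymerase, gave 380.9 in GFP-positive cells against 66.1 in GFP-negative cells, or 5.76-fold (2.53 log2). Psg28, one of the pregnancy-specific glycoproteins that rodent trophoblast secretes, gave 528.8 in GFP-positive cells against 111.8 in GFP-negative cells, or 4.73-fold (2.24 log2). For these 3 genes both signals were above the floor, with that of Med18 in GFP-negative cells close to it.

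Wfdc15a, Ddx43 and Aig1 were above the floor in GFP-positive cells alone. Wfdc15a gave 227.8 in GFP-positive cells against 46.5 in GFP-negative cells, at least 4.09-fold. Ddx43, a DEAD-box RNA helicase known from testis and tumours, gave 200.2 in GFP-positive cells against 26.5 in GFP-negative cells, at least 3.59-fold. Aig1, which splits fatty acid esters of hydroxy fatty acids, gave 191.3 in GFP-positive cells against 47.7 in GFP-negative cells, at least 3.44-fold. Their GFP-positive signals ranked between percentile 79.8 and 82.1 of the GFP-positive array, and their bounds depend directly on the floor.

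**Figure D1:**
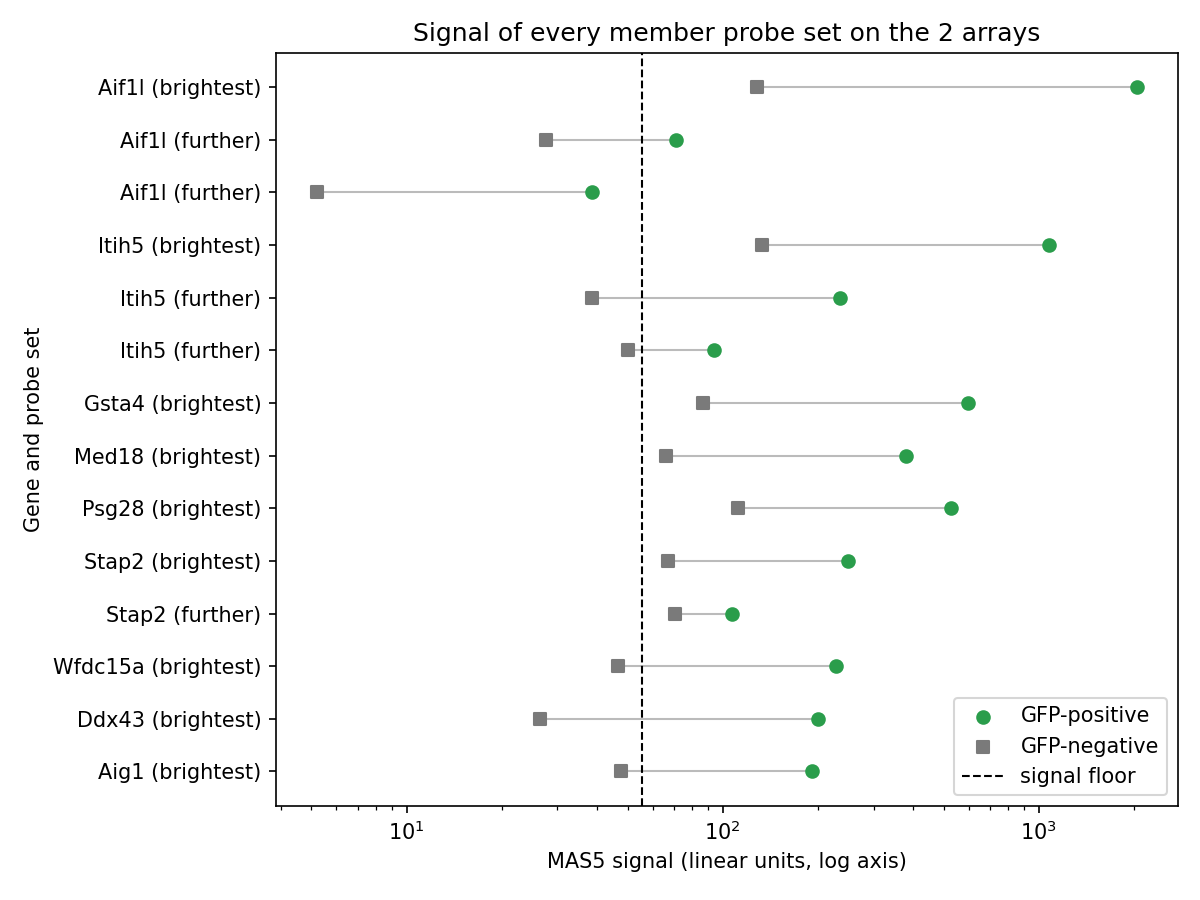
MAS5 signal (log axis) of the 14 probe sets of the 9 genes in GFP-positive cells (green circles) and GFP-negative cells (grey squares), 1 array each, with the signal floor of 55.69 as a dashed line. The green circle lies to the right in every row, from 38.6 for the dimmest Aif1l probe set to 2036.5 for the brightest, and 7 of the 14 GFP-negative signals lie under the floor.

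All 9 genes were past 2-fold by their brightest probe set, which the choice of genes fixed, whereas 2.18% of the 10972 genes that exceeded the floor on 1 or both arrays were. The median difference over those 10972 genes was -0.01 log2. Where both signals exceeded the floor, Aif1l, Itih5, Gsta4, Med18 and Psg28 held ranks 1 to 5 and Stap2 rank 8. The ranks between were held by genes that are not among the 9. Neurl3, a ubiquitin ligase gene, stood at rank 6 with 374.6 in GFP-positive cells against 93.5 in GFP-negative cells (4.01-fold). The T cell receptor gamma segment Trgv1 followed at rank 7, with 251.1 in GFP-positive cells against 64.7 in GFP-negative cells (3.88-fold). Just after Stap2, rank 9 was held by Gpr83, a receptor gene known as high in regulatory T cells, at 3.49-fold. The further probe set of Gpr83 gave 651.6 in GFP-positive cells against 215.8 in GFP-negative cells (3.02-fold). Likeness to the 9 was measured by this difference alone.

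Genes above the floor in GFP-positive cells alone were ranked by lower bound. This rank follows the GFP-positive signal only, as every GFP-negative signal here was raised to the floor. Wfdc15a, Ddx43 and Aig1 held ranks 1, 2 and 4. Ddx19b, another DEAD-box helicase, lay between them at rank 3, and Gm3715 and the DNA helicase gene Recql4 followed with at least 3.38-fold each. The step from Aig1, at least 3.44-fold, to these genes was small. Gm3715 gave 188.2 in GFP-positive cells against 39.6 in GFP-negative cells, and Recql4 gave 188.0 in GFP-positive cells against 49.2 in GFP-negative cells.

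**Figure D2:**
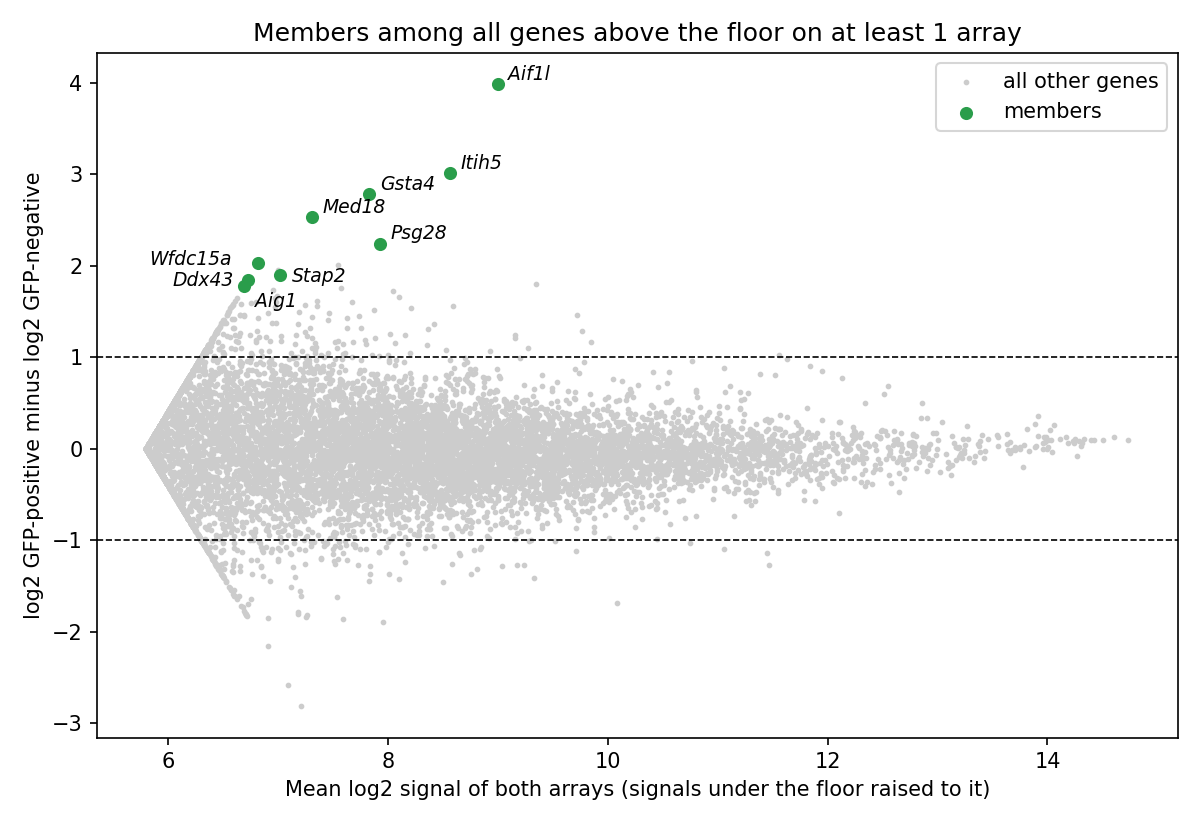
Difference between the arrays (log2 GFP-positive minus log2 GFP-negative) against the mean log2 signal for the 10972 genes that exceeded the floor on 1 or both arrays, by brightest probe set, with dashed lines at 2-fold. The 9 genes (green) lie at the upper edge at low to middle signal, with Aif1l at 3.98 and Itih5 at 3.01 log2 highest, while Stap2, Ddx43, Aig1 and Wfdc15a adjoin other genes.

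The further probe sets were not the ones that ranked the genes, and they gave smaller differences than the brightest in every case. Of the 5 further probe sets of Aif1l, Itih5 and Stap2, all 5 had a higher signal in GFP-positive cells, and 1, an Itih5 probe set, was at least 2-fold higher. Of all further probe sets of any gene above the floor, 3.15% were at least 2-fold higher. Of the 4 above the floor, 3 passed it in GFP-positive cells alone and could come out in that direction only, so their direction is no separate evidence. Direction by itself was also common, since 53.7% of all 16752 further probe sets had a higher signal in GFP-positive cells, as did 63.7% (158 of 248) of those of other genes whose brightest was at least 2-fold higher.

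A closer standard is given by the other 230 genes whose brightest probe set was past 2-fold in favour of GFP-positive cells. Of these, 130 had further probe sets, 248 in number, and 146 of the 248 were under the floor on both arrays. Of the 102 above it, 70 were higher and 32 lower in GFP-positive cells, with a median of 0.17 log2, and 11 (10.8%) were at least 2-fold higher. Genes with a 2-fold difference on the brightest probe set thus often had a small one on the next. The standard is not matched for size, however. The genes of these 102 probe sets had brightest differences of at most 1.80 log2 (Gpr83). Those of Stap2, Itih5 and Aif1l were 1.89, 3.01 and 3.98 log2. Within genes, the differences of probe sets above the floor on both arrays had a standard deviation of 0.41 log2, from 8703 probe sets of 3399 genes. The gap between the Stap2 probe sets, 1.89 against 0.60 log2, was larger than that value. However, the value describes single probe sets about the mean of their gene, and not gaps between probe sets. Stap2 was also chosen by its brightest probe set. The standard deviation leaves out any spread between mice, sorts and hybridisations.

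**Figure D3:**
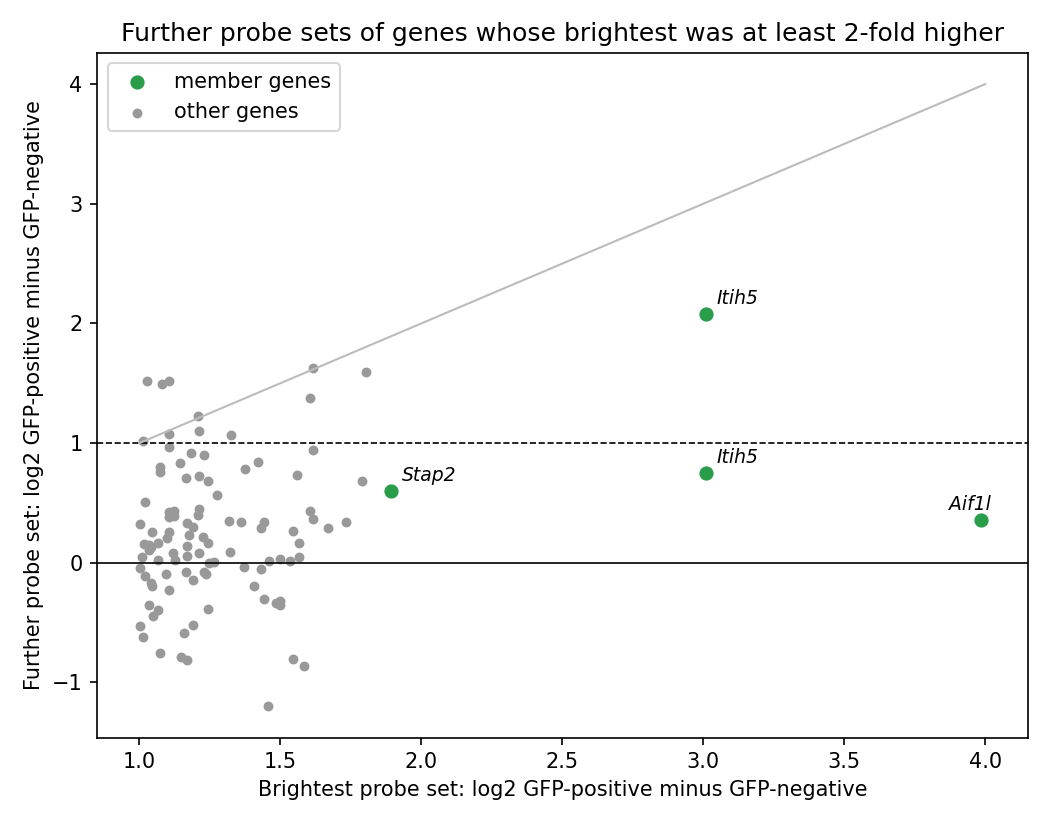
Difference of each further probe set above the floor on at least 1 array against that of the brightest probe set of the same gene, both as log2 GFP-positive minus log2 GFP-negative, for genes whose brightest was at least 2-fold higher. The grey line marks equal values and the dashed line 2-fold. The 4 points of Itih5, Stap2 and Aif1l (green) lie under the line of equal values, and 1 Itih5 point, at 2.08 log2, lies above the 2-fold line.

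The reverse case was measured as well. Counting probe sets rather than genes, 27 had a difference at least as large as that of Aig1, of which 10 belonged to the 9 genes, 11 to other genes and 6 had no gene symbol. Of the 11, 7 were dimmer probe sets of genes with a brighter one, namely St8sia6, Kat2a, Polr3k, Hnrnpu, Hmgn3, Brd8 and Dag1, named here after their values were seen. The brightest probe set was within 1.5-fold for 6 of these 7 genes, and none was at least 2-fold higher. For Hnrnpu, which encodes an abundant nuclear RNA-binding protein, 1 probe set gave 219.9 in GFP-positive cells against 26.0 in GFP-negative cells. Its brightest gave 2182.1 in GFP-positive cells against 2031.4 in GFP-negative cells. For the acetyltransferase gene Kat2a the values were 249.2 in GFP-positive cells against 46.0 in GFP-negative cells on the dimmer probe set, and 408.4 in GFP-positive cells against 470.8 in GFP-negative cells on the brightest. Single probe sets at 192.9 to 274.6 in GFP-positive cells thus showed excesses like those of Wfdc15a, Ddx43, Aig1 and Stap2 where a brighter probe set of the same gene did not. No such check exists for the 6 genes with 1 probe set.

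Relatives of the 9 genes were compared by family list, leaving out the 9 genes. The lists of Aif1l, Itih5, Stap2 and Aig1 also hold genes of related function, which are not relatives by sequence. None of the family medians reached 2-fold, and the share of all tested genes at least 2-fold higher was 2.18%, with 1.9% at least 2-fold lower. The list of Aif1l had 7 measured genes, namely Aif1 and genes of other actin-binding proteins. The 5 above the floor were Coro1a, Lcp1, Actn4, Actn1 and Pls3, so their median describes actin-binding proteins and not Aif1. Of these 5, 4 were lower in GFP-positive cells, with a median of -0.14 log2 and none past 2-fold. Coro1a, an actin regulator of T cells, gave 8344.3 in GFP-positive cells against 9215.4 in GFP-negative cells. Aif1, the closest relative of Aif1l and a macrophage marker, was under the floor on both arrays, at 7.5 in GFP-positive cells against 2.7 in GFP-negative cells.

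Of the inter-alpha-trypsin inhibitor family and hyaluronan partners of Itih5, 7 of 14 were above the floor, 4 higher and 3 lower, with a median of 0.10 log2 and none past 2-fold. The hyaluronan receptor gene Cd44 gave 1369.8 in GFP-positive cells against 1591.9 in GFP-negative cells. The other heavy chain genes on the array, Itih1 to Itih4, gave at most 66.6, the value of Itih2 in GFP-positive cells. Among the glutathione S-transferases other than Gsta4, 12 of 22 were above the floor, 7 higher and 5 lower, with a median of 0.19 log2. The brightest, Gstp1, gave 4163.9 in GFP-positive cells against 4871.3 in GFP-negative cells. Gstm7 was higher in GFP-positive cells by at least 2.41-fold (134.0 in GFP-positive cells against 17.7 in GFP-negative cells), but its other probe set gave 25.3 in GFP-positive cells against 29.2 in GFP-negative cells. The other alpha-class genes measured, Gsta2 and Gsta3, were under the floor on both arrays.

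Mediator subunits were above the floor almost throughout, with 31 of 32 besides Med18. Of these, 13 were higher, 17 lower and 1 equal, and the median was -0.07 log2. Med28, the brightest, gave 1483.7 in GFP-positive cells against 1553.5 in GFP-negative cells. Med24 was the subunit past 2-fold, and in the opposite direction to Med18, with 70.7 in GFP-positive cells against 164.4 in GFP-negative cells (2.33-fold lower). Of the partners of Stap2, 4 were higher and 5 lower, none past 2-fold, at a median of -0.18 log2. Ikbkb, a kinase of the NF-kappaB pathway, was the brightest with 1756.1 in GFP-positive cells against 1990.0 in GFP-negative cells. Stap1, the closest relative of Stap2, gave 284.4 in GFP-positive cells against 279.4 in GFP-negative cells. Ptk6, whose product phosphorylates Stap2, was under the floor on both arrays.

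The pregnancy-specific glycoproteins and their CEACAM relatives were the family with the highest median, 0.65 log2, but 12 of the 17 measured were under the floor on both arrays. The 5 above it were above it in GFP-positive cells alone, so that they could come out higher only. Psg23, second to Ceacam18 in mean signal, gave 130.5 in GFP-positive cells against 44.4 in GFP-negative cells (at least 2.34-fold), and Ceacam18 gave 118.2 in GFP-positive cells against 51.1 in GFP-negative cells (at least 2.12-fold). The Psg genes are closely similar copies of each other, and the suffix of the Psg23 probe set marks probes that can match several transcripts, so signals of Psg28 and Psg23 cannot be assigned to 1 gene with certainty. Of the whey acidic protein relatives of Wfdc15a, 3 of 14 were above the floor, 2 higher and 1 lower, at a median of 0.14 log2. Wfdc18 gave 78.1 in GFP-positive cells against 70.7 in GFP-negative cells, and Wfdc3 gave 70.5 in GFP-positive cells against 31.4 in GFP-negative cells. Slpi, an inhibitor of leukocyte proteases, was 2.14-fold lower in GFP-positive cells (84.3 in GFP-positive cells against 180.1 in GFP-negative cells).

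The list of DEAD-box helicases was taken by Ddx symbol, which does not ensure that every gene on it encodes one. Besides Ddx43, 34 of its genes were measured, of which 33 were above the floor, 16 higher and 17 lower, with a median of -0.0045 log2. Ddx5, the brightest, gave 6261.1 in GFP-positive cells against 5657.2 in GFP-negative cells. The 2 helicases at least 2-fold higher were split by their other probe sets. Ddx19b gave 192.4 in GFP-positive cells against 54.8 in GFP-negative cells, then 89.3 in GFP-positive cells against 49.5 in GFP-negative cells, and then 2.3 in GFP-positive cells against 43.8 in GFP-negative cells. Ddx11 gave 200.7 in GFP-positive cells against 71.8 in GFP-negative cells, and the opposite order of 99.4 in GFP-positive cells against 125.4 in GFP-negative cells on its other probe set. Of the relatives and partners of Aig1, Adtrp and Cel were under the floor on both arrays, and Lipe, a lipase gene, gave 58.0 in GFP-positive cells against 14 in GFP-negative cells.

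**Figure D4:**
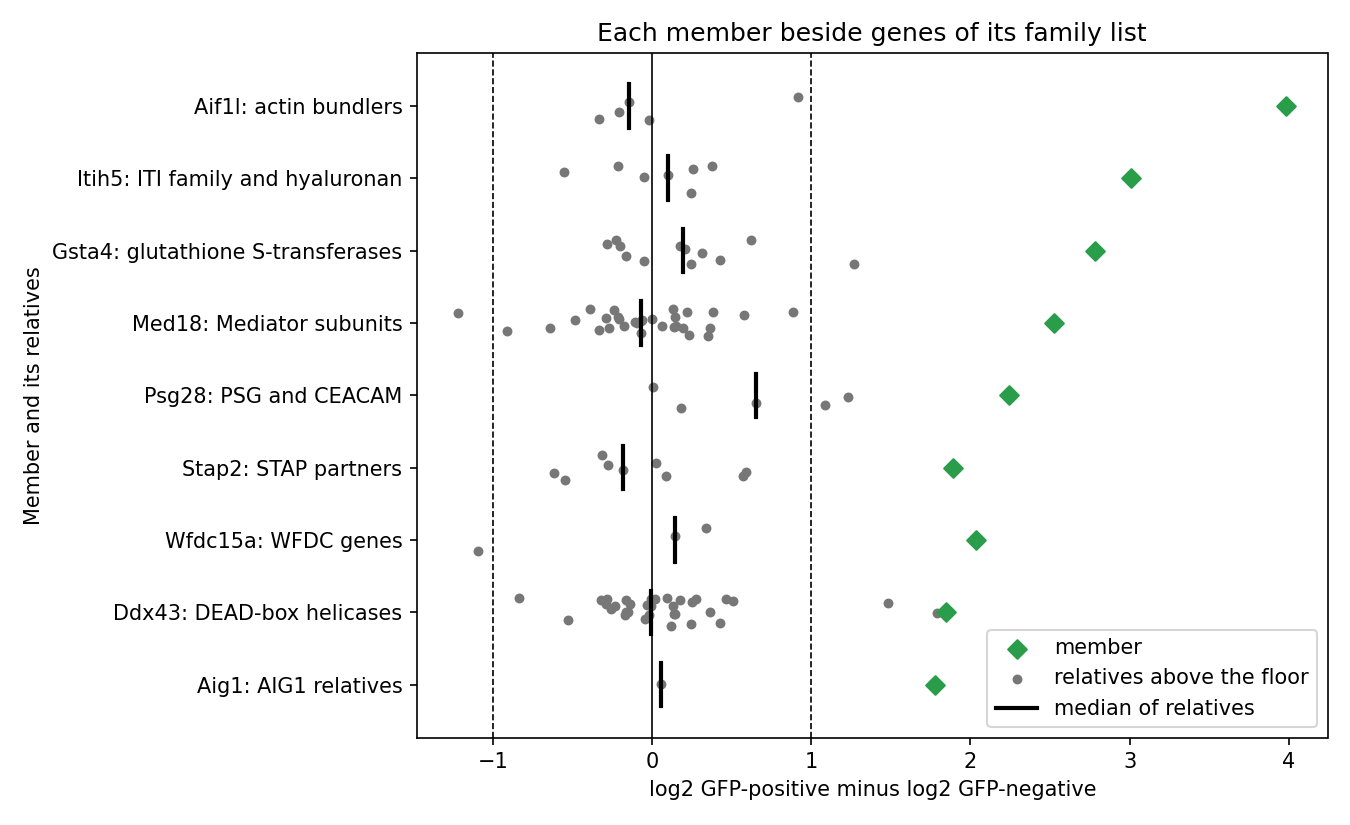
Difference (log2 GFP-positive minus log2 GFP-negative) of each of the 9 genes by its brightest probe set (green diamonds) beside the genes of its family list. The listed genes are relatives or partners above the floor on at least 1 array (grey dots, spread vertically for visibility). Black bars give their median and dashed lines mark 2-fold. The listed genes centre between -0.18 and 0.65 log2, and each green diamond lies to the right of its listed genes.

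The genes next to the 9 on the chromosome were read as a further measure that the choice did not use. Of 18 nearest protein-coding genes with a probe set, 1 on each side, 7 were under the floor on both arrays, and of the other 11, 8 were higher and 3 lower in GFP-positive cells. Of the 8, Itih2, Sesn2 and Psg23 were above the floor in GFP-positive cells alone and could come out higher only. Over all 10972 genes tested, 5406 were higher and 5563 lower. The 2 neighbours at least 2-fold higher were Psg23 beside Psg28, and Cgas beside Ddx43, where 2.18% of all genes tested were. As the Psg23 signal cannot be assigned to 1 gene with certainty, it is not a measure separate from Psg28. Cgas, the gene of a sensor of cytosolic DNA, gave 328.9 in GFP-positive cells against 162.1 in GFP-negative cells (2.03-fold), but 106.4 in GFP-positive cells against 115.1 in GFP-negative cells on its other probe set. Beside Aif1l, Nup214 gave 393.5 in GFP-positive cells against 365.5 in GFP-negative cells, and Lamc3 was under the floor. Beside Itih5, its family member Itih2 gave 66.6 in GFP-positive cells against 24.0 in GFP-negative cells. Both neighbours of Aig1 were lower in GFP-positive cells, with Hivep2 at 365.6 in GFP-positive cells against 553.7 in GFP-negative cells. Of the 9 genes, 3 lie on chromosome 2, which holds 7.91% of the tested genes, and 2 on chromosome 9, which holds 5.78%.

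Several of the 9 genes are known from tissues other than T cells, so markers of such tissues and of other blood cells were read on the same arrays. Markers of germ cells, trophoblast, epididymis and stroma served to set the floor, so most lie under it by construction. Of 7 trophoblast markers the 3 above the floor stayed at or under 106.5, and the 7 together summed to 283.9 in GFP-positive cells against 216.9 in GFP-negative cells. The brightest trophoblast markers, Tpbpa and Hand1, gave 95.4 and 75.0 in GFP-positive and 106.5 and 55.3 in GFP-negative cells. Of 12 male germ cell markers 2, Prm1 and Prm2, were above the floor, and in GFP-positive cells alone. Prm1 gave 61.9 in GFP-positive cells against 46.3 in GFP-negative cells, and Prm2 gave 61.3 in GFP-positive cells against 6.2 in GFP-negative cells. Tex14 was under the floor on both arrays, at 33.0 in GFP-positive cells against 37.7 in GFP-negative cells. The list summed to 312.5 in GFP-positive cells against 186.2 in GFP-negative cells. Ddx4, a germ cell helicase gene of that list, gave 1.4 in GFP-positive cells against 18.1 in GFP-negative cells. Epididymis and prostate markers summed to 226.8 in GFP-positive cells against 99.6 in GFP-negative cells over 8 genes, with Defb1 at 87.6 in GFP-positive cells against 29.2 in GFP-negative cells and Ces5a at 72.5 in GFP-positive cells against 16.0 in GFP-negative cells.

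Blood cell markers other than those of T cells did not share 1 direction. The 16 myeloid and dendritic cell markers summed to 492.4 in GFP-positive cells against 653.5 in GFP-negative cells, with 4 of the 6 above the floor higher and 2 lower. Their brightest, Adgre1, gave 94.3 in GFP-positive cells against 79.1 in GFP-negative cells, Fcgr3 gave 35.0 in GFP-positive cells against 125.8 in GFP-negative cells, and Lyz2 was under the floor at 17.7 in GFP-positive cells against 43.4 in GFP-negative cells. B cell markers summed to 2595.9 in GFP-positive cells against 5090.2 in GFP-negative cells over 10 genes, with Ighm at 1880.7 in GFP-positive cells against 4139 in GFP-negative cells, Cd74 at 228.0 in GFP-positive cells against 424.4 in GFP-negative cells, and Cd79a under the floor on both arrays. Of the 5 B cell markers above the floor 2 were higher and 3 lower. Cd79b went the other way from Ighm, at 221.9 in GFP-positive cells against 70.8 in GFP-negative cells (3.13-fold higher), and Cd22 was 2.39-fold lower. Markers of CD8 T and NK cells summed to 1517.5 in GFP-positive cells against 1199 in GFP-negative cells, of which Gzma gave 1152.9 in GFP-positive cells against 850.5 in GFP-negative cells, and Klrd1 gave 148.5 in GFP-positive cells against 103.5 in GFP-negative cells. The other 3 that passed the floor had less signal in GFP-positive cells, namely Cd8b1 at 100.4 in GFP-positive cells against 115.2 in GFP-negative cells, Prf1 at 48.1 in GFP-positive cells against 61.5 in GFP-negative cells, and Cd8a at 31.5 in GFP-positive cells against 55.7 in GFP-negative cells. Erythroid and platelet markers summed to 272.2 in GFP-positive cells against 285.8 in GFP-negative cells, led by Itga2b and Klf1 with at most 102.0. Stromal and epithelial markers summed to 658.4 in GFP-positive cells against 588.4 in GFP-negative cells over 15 genes, with Krt18 at 163.7 in GFP-positive cells against 132.9 in GFP-negative cells and Epcam at 167.9 in GFP-positive cells against 86.9 in GFP-negative cells. The third above the floor, Pdgfra, was lower, at 3.0 in GFP-positive cells against 107.7 in GFP-negative cells. The part of these markers in the differences of the 9 genes was not tested. By comparison, the 21 measured genes of the regulatory T cell list were all higher in GFP-positive cells, 9 of them at least 2-fold, with a median of 0.96 log2. The brightest of them, Ikzf2 and Tnfrsf4, gave 4435.4 and 2647.9 in GFP-positive cells against 2250.3 and 1725.5 in GFP-negative cells. Others were nearly level, such as Entpd1 (1.04-fold) and Nrp1 (1.05-fold). Of all 10972 genes tested, 5406 were higher and 2.18% were at least 2-fold higher. The cells were sorted by a Foxp3 reporter. The list was also chosen with earlier results of these data known, so these counts carry no test.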

How the data were processed

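RNA of GFP-positive and GFP-negative CD4+ T cells of DEREG mice was measured on 1 array each, and titles assigned the arrays to groups. The values are 1 intensity per probe set on a linear scale, deposited by the authors after MAS5 summarisation, as the submitters' processing notes state. The sources used here give neither software version nor detection calls. The 2% trimmed mean was 150.0 on both arrays, so the deposited intensity values had been scaled to each other. The arrays' number limits the precision.

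Probe sets were named through the platform annotation, which gave 1 symbol for 34958, several for 932 and none for 9211. The 64 control probe sets were left out. Each gene was represented by its brightest probe set (mean log2 signal), and lower signals were set to the floor. A difference is the log2 GFP-positive signal minus the log2 GFP-negative signal. As each group has 1 array, no test was run. Named genes are the 9 genes, relatives past 2-fold, the brightest relative of each family, the next genes in rank, and the brightest markers. Relatives, neighbours and probe sets named for another reason were added after their values were seen. The members and lists were chosen with earlier results of these data known. Alternatives were a doubled floor, no floor, quantile normalization, loess (statsmodels 0.14.6, span 0.4), averaged probe sets, and no probe sets ending in _s_at or _x_at. The steps were tested on simulated data. Changes were placed there only in genes whose GFP-negative signal was higher than that of any of the 9 genes. Changes at signals as low as theirs were not tried. Calculations used Python 3.11.15 with numpy 2.4.6 and pandas 2.3.3.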

Additional observations from a re-analysis of the deposited data

How the results depend on the processing

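No paired analysis was possible because each group has 1 array. The 9 genes kept the same direction under every alternative. With the floor doubled to 111.38, Ddx43 (at least 0.85 log2) and Aig1 (at least 0.78 log2) fell under 2-fold, leaving 7 of 9, and Wfdc15a stood at 1.03 log2; all 9 were past 2-fold under each other alternative. Psg28 moved least, between 2.24 and 2.25 log2, whereas Aif1l lay between at least 1.67 log2 with probe sets averaged, a bound set by the floor, and 4.04 log2 with loess. The number of genes tested changed with the floor. At least 2-fold higher were 239 of 10972 genes, 73 of 7683 with the floor doubled and 3305 of 18193 without a floor. Without a floor, 3 of the 5 further probe sets were at least 2-fold higher instead of 1. The share of all further probe sets past 2-fold was not counted without a floor. Family medians without a floor were 0.70 log2 for the Itih5 list, 1.21 for the Psg28 list, 1.10 for the Wfdc15a list and -2.06 for the Aig1 list. With the floor doubled the median was 0.16 for the Psg28 list and -0.69 for the Wfdc15a list. The Wfdc15a list also gave -0.48 after averaging probe sets, -0.38 when those ending in _s_at or _x_at were left out, and 0.14 in the main setting, from 3 genes. The floor acts by construction on genes near it. The Wfdc18 probe set ends in _s_at, so without such probe sets the median of the Wfdc15a list came from Slpi and Wfdc3. The cause of the remaining shifts was not tested. Quantile normalization and loess moved none of the 9 genes by more than the spread of 0.41 log2 between probe sets of a gene.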

Other observations

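Among the 27 probe sets with a difference at least as large as that of Aig1, 6 carried no gene symbol in the annotation used here. The probe set 1447329_at gave 785.3 in GFP-positive cells against 131.4 in GFP-negative cells (5.98-fold) and stood at rank 4, between Gsta4 and Med18. The probe set 1452418_at gave 1665.2 in GFP-positive cells against 333.2 in GFP-negative cells. The probe sets 1420310_at and 1425471_x_at gave 1331.5 and 1815.1 in GFP-positive cells, against 305.9 and 422.5 in GFP-negative cells. These 4 were above the floor on both arrays.

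St8sia6, a sialyltransferase gene, was the one of the 7 genes with a dimmer outlying probe set whose brightest probe set was also more than 1.5-fold higher. It gave 609.5 in GFP-positive cells against 355.3 in GFP-negative cells on the brightest (1.72-fold) and 274.6 in GFP-positive cells against 49.8 in GFP-negative cells on the other (at least 4.93-fold).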
